A study of Homo sapiens with 4 samples.

Results

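Nuclear hormone receptors are transcription factors that bind DNA through a zinc-finger domain and, in many cases, a small lipophilic ligand such as a steroid, a retinoid, a fatty acid or an oxysterol. Steroid receptors act mostly as homodimers, whereas retinoid, vitamin D, thyroid hormone, PPAR and LXR receptors pair with a retinoid X receptor, and both kinds recruit coactivators or corepressors. In the ovary and in ovarian carcinoma the family is best known through the oestrogen, progesterone and glucocorticoid receptors. The 39 receptors described here were picked out by gene symbol, with no threshold on their values, from a deposited count table of 65988 gene identifiers.

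The table covers 4 RNA sequencing libraries of SKOV3, a cell line from a human ovarian carcinoma whose ERBB2 gene is amplified. There were 2 wild-type libraries, labelled cisplatin susceptible, and 2 of SKOV3 CR, a cisplatin-resistant derivative. Per the labels' protocols the derivative went through 6 cycles over 5 months, each with 4 hours of cisplatin at a rising concentration and 3 weeks without it. All cells were collected untreated in log growth. The labels call the libraries biological replicates and do not say that the selection was repeated or that SKOV3 CR is a clone, so resistance and divergence of the line over time cannot be told apart.

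Library totals ran from 43658695 to 79592903 counts, and 1 CPM (the unit of read counts relative to the TMM-scaled library size) stood for 42.6 to 83.1 counts. Of 7 epithelial carcinoma markers all were detected, and 6 were lower in resistant cells, with KRT7, EPCAM and MUC1 the largest of these falls. The 6 blood cell markers, HBB for red cells and the others for leukocytes, summed to between 0.446 and 1.36 CPM in a library. HBB was at 0, and PTPRC had 0 reads in both wild-type and 6 and 27 in the resistant libraries. CD3E and CD68 had no more than 1 read in any library. Of the 202 genes in the lists described further below, 21 were also at 0 in every library, STUB1 and DUSP1 among them. Whether genes at 0 were not expressed or were not counted was not tested. Of the 4 endothelial markers 2 were lower, and their summed level was 9.68 to 11.5 CPM in wild-type and 1.77 to 1.86 CPM in resistant libraries. Of the 7 fibroblast markers 3 were higher and 1 was lower, and THY1 was at 0. Their sums were 26.8 and 36.5 CPM in wild-type and 59.8 and 52.5 CPM in resistant libraries. Within these sums DCN went from 0.0939 and 0.0195 to 31.6 and 21.9 CPM. COL1A2, the marker that was lower, went from 17.8 and 20.4 to 4.29 and 3.27 CPM. Over all tested genes, 22.1% were called higher and 23.2% lower in the fit described below. The part of these marker shifts in the receptor results was not tested. In bulk RNA, fewer cells expressing a gene and less RNA per cell cannot be told apart.

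All 39 receptors had reads in at least 1 library. Reads were too few for testing in 3 of them. The retinoid X receptor RXRG had 0 and 1 reads in the wild-type and 1 and 0 in the resistant libraries. The bile acid receptor NR1H4 (FXR) had 1 read in each of 3 libraries and 8 in resistant replicate 2. The xenobiotic receptor NR1I2 (PXR) had 0 and 7 against 4 and 2. For RXRB, 5 further identifiers outside the primary assembly were at 0 in every library, and its values here come from the identifier on chromosome 6.

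Receptors changed about as often as other genes. Of the 36 tested, 16 (44.4%) passed edgeR's quasi-likelihood test at a Benjamini-Hochberg adjusted p under 0.05, where 45.3% of all 18602 tested genes did. Higher in resistant cells were 7 receptors, where 22.1% of all genes were called higher, and lower were 9, where 23.2% were called lower. The median log2 change (resistant over wild-type) was 0.01 over the receptors and 0.003 over all tested genes. The calls of 9 receptors were kept under each of the 11 alternative settings that gave them a value. These 9 were ESR1, VDR, NR2F2, NR1H3 and NR2F6, which fell, and NR1D2, RARB, NR2C2 and HNF4G, which rose. At least 2-fold changes were fitted for ESR1, VDR, NR2F2 and RARB.

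**Figure D1:**
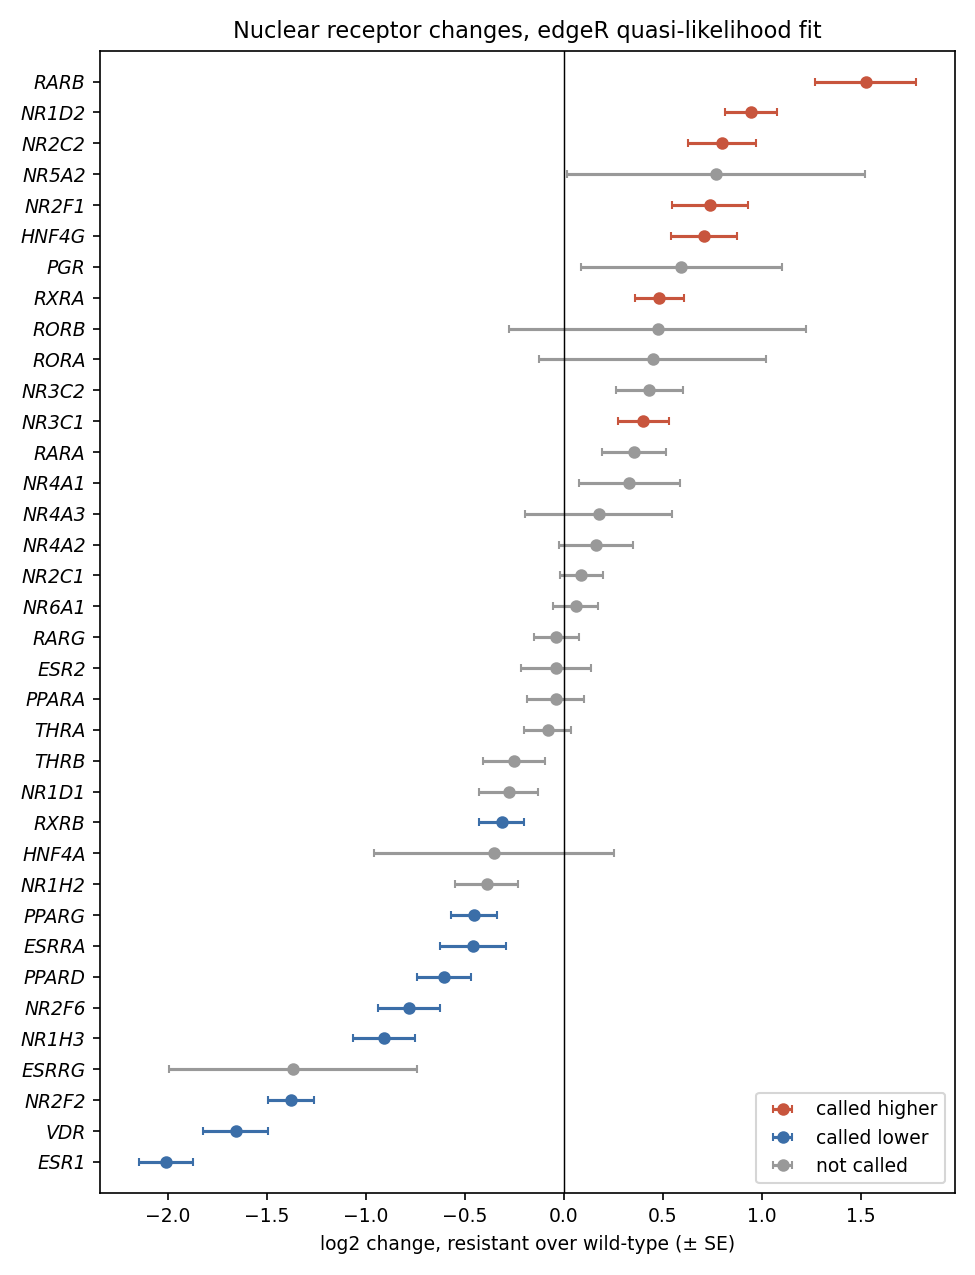
Fitted log2 change of each of the 36 tested receptors, resistant over wild-type, ordered by size, with bars of 1 SE. Red points were called higher (7), blue points lower (9) and grey points neither, and ESR1 at -2.01 and RARB at 1.52 mark the ends of the called range.

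Sequences upstream of 2 of the rising receptors, RARB and NR1D2, are shown with one from the retinoid-degrading enzyme gene CYP26A1, because they hold the elements through which the retinoid and clock systems are known to act on these genes. Many of the receptors, but not all, bind hexamers related to AGGTCA. A retinoic acid receptor paired with RXR is known to bind a direct repeat of such hexamers with 5 bases between. The windows searched were 250 bases before to 50 after each RefSeq start on GRCh38.p14, on both strands, with the hexamer AGGTCA, its variant AGTTCA, the further variant GGGTCA or the last variant searched, GGTTCA, and spacers of 0 to 5 bases. Capitals mark the hexamers in the first and second lines and the palindrome CACGTG in the third, and all 3 sequences are on the plus strand.
RARB, chr3:25428163-25428262: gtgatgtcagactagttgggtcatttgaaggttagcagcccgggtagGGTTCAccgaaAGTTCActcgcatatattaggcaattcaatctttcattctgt
CYP26A1, chr10:93073797-93073826: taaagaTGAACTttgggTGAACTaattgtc
NR1D2, chr3:23945921-23946120: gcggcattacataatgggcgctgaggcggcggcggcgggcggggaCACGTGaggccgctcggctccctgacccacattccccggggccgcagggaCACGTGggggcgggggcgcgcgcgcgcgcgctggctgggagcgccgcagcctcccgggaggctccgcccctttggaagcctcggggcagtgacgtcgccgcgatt

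The RARB repeat lies at -53 to -37 relative to one of the RefSeq starts of that gene, within an intron of a longer RARB transcript, and the CYP26A1 repeat reads on the minus strand. A direct repeat with a spacer of 5 bases occurred in 0.0883% of all 35116 windows, and one with any of the spacers in 0.564%. Windows were found for 35 of the 39 receptors, 87 in all, and the RARB window was the 1 that held a direct repeat. AGGTCA occurred at least 1 time in 14 receptor windows, and in 13.8% of all windows. CACGTG, the E-box bound by the clock factors CLOCK and ARNTL, stood at -155 to -150 and at -105 to -100 relative to a start of NR1D2. Windows with CACGTG at least 2 times made up 0.664% of all windows. Among the receptors these were that of NR1D2, which rose, and one of NR2F2, which fell (log2 change -1.38). These matches describe the letters of the windows, and the reads here do not tell from which start a transcript came.

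Steroid receptors bind oestrogens, progesterone, glucocorticoids and mineralocorticoids. ESR1, oestrogen receptor alpha (chr6:151656691-152129619, GRCh38), had the largest fall among the receptors. Its level was 97.4 and 88.6 CPM in the wild-type and 25.3 and 20.9 CPM in the resistant libraries. Both resistant libraries lay far below both wild-type libraries, and the fitted level was 4.03-fold lower (log2 change -2.01 ± 0.14 SE, edgeR adjusted p = 6.74e-07). ESR2, oestrogen receptor beta, was at 7.26 and 8.16 CPM in wild-type and 7.02 and 7.96 CPM in resistant cells, and the groups overlapped (log2 change -0.04 ± 0.18, edgeR adjusted p = 0.87). The span of ESR2 is 59.4% covered by other genes, which share 5.6% of its exon bases, so its value is less certain. Per kb of exon, ESR1 stood at 9.04 and 7.32 times ESR2 in the wild-type libraries and at 2.43 and 1.77 times in the resistant libraries.

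NR3C1, the glucocorticoid receptor, had 66.99 and 62.6 CPM in wild-type and 94.1 and 77.0 CPM in resistant libraries. It rose by a modest amount (log2 change 0.40 ± 0.13, edgeR adjusted p = 0.0251). Its edgeR adjusted p was 0.0538 without wild-type replicate 1, 0.15 without wild-type replicate 2 and 0.128 without resistant replicate 1. NR3C2, the mineralocorticoid receptor, moved by a similar amount, from 10.2 and 11.5 to 16.3 and 13.0 CPM, but was not called (log2 change 0.43 ± 0.17, edgeR adjusted p = 0.0584). With no filter on low counts NR3C2 had an edgeR adjusted p of 0.0344, with the replicate number as a block 0.0245, and without resistant replicate 2 one of 0.0102. The progesterone receptor PGR was near the limit of detection, with 15 and 49 reads in wild-type and 80 and 67 in resistant libraries (log2 change 0.59 ± 0.51, edgeR adjusted p = 0.371). Without wild-type replicate 2 its log2 change was 1.503 (edgeR adjusted p = 0.0383). Among the oestrogen-related receptors, which bind no known natural hormone, ESRRA went from 26.5 and 31.6 to 18.2 and 24.1 CPM (edgeR adjusted p = 0.042). That call was lost without wild-type replicate 2 (log2 change -0.32, edgeR adjusted p = 0.252) and without resistant replicate 1 (-0.26, edgeR adjusted p = 0.218). ESRRG had 58 and 20 reads against 23 and 27. Its log2 change was -1.37 ± 0.63 (edgeR adjusted p = 0.0973), and it ranged from -0.21 without wild-type replicate 1 to -2.01 without wild-type replicate 2, where it was called (edgeR adjusted p = 0.00232), as it was with no filter on low counts (edgeR adjusted p = 0.044).

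**Figure D2:**
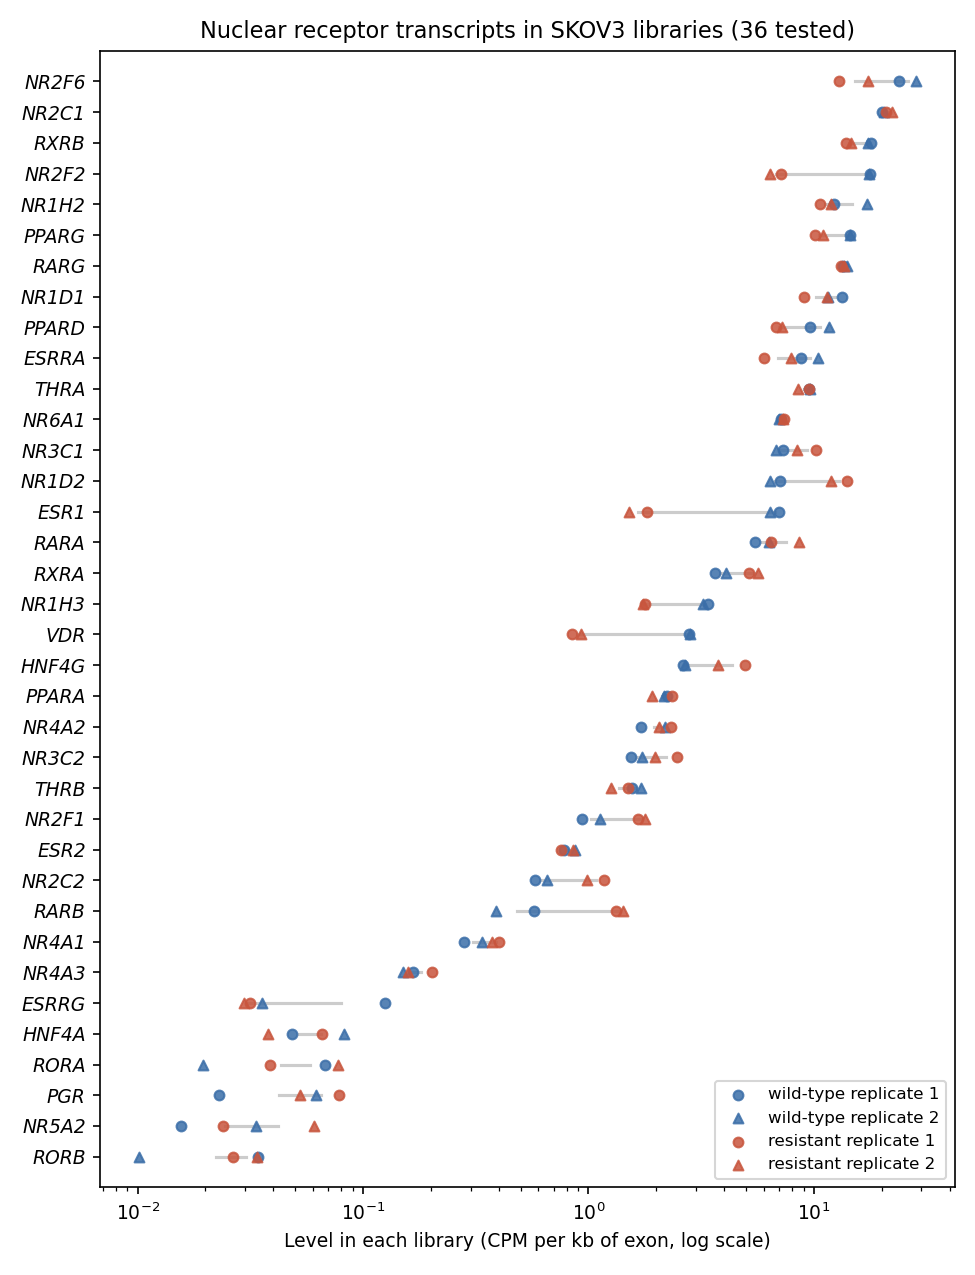
Level of each tested receptor in each library, in CPM per kb of exon on a log axis, ordered by the wild-type mean, with a grey line between the group means. Blue is wild-type and red resistant, and ESR1, VDR and NR2F2 show red points far to the left of blue ones while most of the 36 receptors have points of both colours close together.

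Levels per kb of exon (exon length from GENCODE release 29) spanned more than 3 orders of magnitude. In wild-type cells the order was led by NR2F6 at a mean of 26.1 CPM per kb, NR2C1 at 20.3, RXRB at 17.7 and NR2F2 at 17.7. RXRB and NR2F2 did not differ beyond their spread there, since their libraries overlapped. In resistant cells NR2C1 came first at 21.6 CPM per kb, then NR2F6 at 15.2 and RXRB at 14.3, whose libraries overlapped. NR2F2 went from position 4 to 15 in that order, and ESR1 from 15 to 23. NR1D2 moved the other way, from 14 to 5. At the low end, 10 receptors had group means under 2 CPM on both sides, RORA, RORB, HNF4A and NR5A2 among them.

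Retinoic acid receptors (RAR) bind all-trans retinoic acid as partners of the retinoid X receptors (RXR). RARB (chr3:25174332-25597932), itself a known target of retinoic acid through the repeat shown above, had 90 and 74 reads in the wild-type and 328 and 437 in the resistant libraries. That is 2.11 and 1.44 CPM against 4.92 and 5.26 CPM, a 2.88-fold rise (log2 change 1.52 ± 0.25, edgeR adjusted p = 0.000597), and both resistant libraries lay above both wild-type libraries. RARB remained a minor member: RARG stood at 23.6 and 36.1 times its level per kb in wild-type and at 9.92 and 9.62 times in resistant libraries. RARG itself was nearly level, at 69.3 and 72.2 CPM against 67.7 and 70.1 CPM (log2 change -0.04 ± 0.11, edgeR adjusted p = 0.811). RARA went from 25.9 and 29.9 to 30.5 and 40.8 CPM and was not called (log2 change 0.36 ± 0.16, edgeR adjusted p = 0.0933). Of its exon bases 17.9% are shared with opposite-strand genes. It was called without resistant replicate 1 (log2 change 0.56, edgeR adjusted p = 0.00523), with the replicate block (edgeR adjusted p = 0.0139) and with no filter on low counts (edgeR adjusted p = 0.0358).

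The shared partners RXRA and RXRB moved in opposite directions. RXRA went from 40.5 and 45.3 to 57.4 and 62.5 CPM (log2 change 0.48 ± 0.12, edgeR adjusted p = 0.00835). RXRB went from 70.6 and 68.4 to 54.5 and 57.2 CPM (log2 change -0.31 ± 0.11, edgeR adjusted p = 0.0434). In neither gene did the groups overlap, and the level of RXRB per kb fell from 4.93 and 4.26 to 2.69 and 2.59 times that of RXRA. The RXRA call was lost without wild-type replicate 1 (edgeR adjusted p = 0.0968). That of RXRB was lost without wild-type replicate 1 (edgeR adjusted p = 0.262), wild-type replicate 2 (0.179) or resistant replicate 1 (0.116), and with no filter on low counts (0.09).

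Genes that carry, make or degrade retinoids, or are known retinoic acid targets, included 1 large rise and several large falls. Of 14 tested of 21, 1 rose and 6 fell, where 22.1% of all genes were called higher and 23.2% lower. Their median log2 change was -0.38, against 0.003 over all tested genes. CYP26B1, an enzyme that degrades retinoic acid, rose from 1.55 and 1.62 to 26.5 and 28.2 CPM (log2 change 4.11 ± 0.18, edgeR adjusted p = 1.99e-08). DHRS3, which reduces retinaldehyde to retinol, fell from 34.6 and 40.0 to 2.70 and 2.63 CPM (log2 change -3.81 ± 0.17). RARRES3, named for its response to retinoid receptor ligands, fell from 80.2 and 77.5 to 3.69 and 3.98 CPM (log2 change -4.36 ± 0.14). The retinoic acid binding protein CRABP1 fell by 1.18 ± 0.20 on the log2 scale. These 3 falls had edgeR adjusted p-values from 3.64e-09 for RARRES3 to 0.000639 for CRABP1. CYP26A1, whose repeat is printed above, had 1, 5, 4 and 3 reads in the 4 libraries and was not tested.

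PPARs bind fatty acids and control lipid oxidation and storage. PPARD went from 42.9 and 52.2 to 30.1 and 32.4 CPM (log2 change -0.61 ± 0.14, edgeR adjusted p = 0.00407), and PPARG from 65.7 and 65.9 to 46.1 and 49.9 CPM (log2 change -0.45 ± 0.12, edgeR adjusted p = 0.00845). Both were lower in each resistant library than in either wild-type library. The PPARD call was lost without wild-type replicate 2 (edgeR adjusted p = 0.0744), and that of PPARG without wild-type replicate 1 (0.0588) or replicate 2 (0.0616). PPARA, at 29.4 and 28.5 against 31.0 and 25.3 CPM, had overlapping groups (log2 change -0.04 ± 0.14, edgeR adjusted p = 0.834). Among 13 tested PPAR target genes 5 fell and 1 rose, 46.2% of those tested, where 45.3% of all genes were called. Their median log2 change was -0.27. PLIN2, which coats lipid droplets, fell by 3.64 ± 0.37, TXNIP by 1.35 ± 0.11 and the mitochondrial fatty acid oxidation enzyme ACADVL by 1.07 ± 0.12 on the log2 scale (edgeR adjusted p = 1.59e-05, 3.26e-06 and 3.84e-05). The rise was in FABP3, a fatty acid binding protein (0.57 ± 0.21, edgeR adjusted p = 0.0446). It was lost without wild-type replicate 2 (0.32, edgeR adjusted p = 0.368) or resistant replicate 2 (0.56, edgeR adjusted p = 0.0572), in DESeq2 (adjusted p = 0.0576) and in limma on the authors' normalized values (adjusted p = 0.0508). PPARGC1A, the coactivator best known for work with PPARs and the oestrogen-related receptors, fell from 13.3 and 14.0 to 2.24 and 2.19 CPM (log2 change -2.63 ± 0.18, edgeR adjusted p = 7.91e-07).

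LXRs bind oxysterols and raise cholesterol efflux and fatty acid synthesis genes. NR1H3 (LXR alpha) fell from 15.3 and 14.6 to 8.04 and 7.88 CPM (log2 change -0.91 ± 0.16, edgeR adjusted p = 0.000716). Other genes cover 48.1% of the span of NR1H2 (LXR beta) but share 0.0% of its exon bases. At 45.9 and 64.6 against 39.8 and 44.6 CPM, NR1H2 was not called (log2 change -0.39 ± 0.16, edgeR adjusted p = 0.0684). It was called without wild-type replicate 1 (-0.61, edgeR adjusted p = 0.00802), without resistant replicate 2 (-0.47, edgeR adjusted p = 0.0287), with the replicate block (edgeR adjusted p = 0.00672) and with no filter on low counts (0.0298). Of 10 tested LXR targets 5 fell and 1 rose, 60.0% of those tested, where 45.3% of all genes were called. Their median log2 change was -0.48. SREBF1, the regulator of fatty acid synthesis, fell from 86.8 and 111 to 32.4 and 36.2 CPM (log2 change -1.53 ± 0.14, edgeR adjusted p = 8.11e-06). The cholesterol exporter ABCG1 had 61 and 147 reads in wild-type and 2 and 3 in resistant libraries (log2 change -5.93 ± 0.62, or -5.34 without wild-type replicate 2). MYLIP, which marks the LDL receptor for degradation, fell by 0.98 ± 0.15 on the log2 scale. The phospholipid transfer protein PLTP rose by 2.70 ± 0.33, from 0.446 and 0.506 to 2.79 and 3.43 CPM. These last 3 genes had edgeR adjusted p-values from 1.99e-05 for ABCG1 to 0.000389 for MYLIP.

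VDR, the vitamin D receptor (chr12:47841537-47943048), fell 3.16-fold. Its levels were 15.8 and 16.0 CPM in wild-type and 4.82 and 5.26 CPM in resistant libraries (log2 change -1.66 ± 0.16, edgeR adjusted p = 1.31e-05), with close replicates and a wide gap between groups. Known VDR targets did not move one way: of 7 tested, 2 rose and 3 fell, or 71.4%, where 45.3% of all genes were called. CYP24A1, which degrades active vitamin D and is among its best known targets, went from 2 and 13 reads to 177 and 222 reads (log2 change 4.07 ± 0.51, edgeR adjusted p = 7.85e-05). Its log2 change was 3.40 without wild-type replicate 1 and 5.77 without wild-type replicate 2. THBD, the thrombin receptor thrombomodulin, rose by 1.17 ± 0.12 on the log2 scale (edgeR adjusted p = 1.9e-05). The calcium-binding protein CALB1 fell from 1521 and 1421 to 349.9 and 326 CPM (log2 change -2.12 ± 0.11, edgeR adjusted p = 1.01e-07), and SLC37A2 fell by 0.80 ± 0.20 (edgeR adjusted p = 0.00769).

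The thyroid hormone receptors were close to level. THRA had 66.5 and 66.7 CPM in wild-type and 66.6 and 59.4 CPM in resistant libraries (log2 change -0.08 ± 0.12, edgeR adjusted p = 0.605). THRB had 17.1 and 18.7 CPM against 16.4 and 13.7 CPM (log2 change -0.25 ± 0.15, edgeR adjusted p = 0.209). Of 7 tested genes for thyroid hormone targets, transport and activation, 3 rose and 3 fell, or 85.7%, where 45.3% of all genes were called. KLF9 and HR, known hormone-responsive genes, fell by 1.71 ± 0.24 and 1.60 ± 0.14. The deiodinases DIO2 and DIO1, which convert the prohormone, rose by 1.85 ± 0.42 and 1.42 ± 0.30, and the transporter SLC16A10 by 1.27 ± 0.36, from wild-type levels under 2 CPM. The edgeR adjusted p-values of these 5 genes ran from 4.27e-06 for HR to 0.0132 for SLC16A10.

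REV-ERBs repress, and RORs activate, the clock gene ARNTL, and bind the same elements. NR1D2 (REV-ERB beta) rose from 41.2 and 37.3 to 81.8 and 69.1 CPM, 1.92-fold (log2 change 0.94 ± 0.13, edgeR adjusted p = 0.000163). NR1D1 (REV-ERB alpha) went from 37.1 and 32.1 to 25.1 and 31.8 CPM and was not called (log2 change -0.28 ± 0.15, edgeR adjusted p = 0.155). It was called without resistant replicate 2 (-0.45, edgeR adjusted p = 0.0264). Per kb, NR1D1 stood at 1.89 and 1.81 times NR1D2 in wild-type and at 0.645 and 0.965 times in resistant libraries. The order of the pair per kb thus changed, whereas in CPM NR1D2 was above NR1D1 in every library. The change of order therefore depends on the exon lengths used. RORA and RORB stayed below 2 CPM. RORA had 49 and 17 reads against 44 and 110, and its log2 change of 0.45 ± 0.57 turned to -0.20 without wild-type replicate 2 and to 1.60 (edgeR adjusted p = 0.0225) without wild-type replicate 1. In the clock gene list, 5 of 18 rose and 6 fell, or 61.1%, where 45.3% of all genes were called. CLOCK rose from 4.65 and 4.25 to 10.8 and 7.20 CPM (log2 change 1.01 ± 0.22, edgeR adjusted p = 0.0033), while ARNTL, its partner, fell from 39.4 and 32.5 to 23.3 and 22.4 CPM (-0.65 ± 0.14, edgeR adjusted p = 0.00313, or 0.0508 without wild-type replicate 1). The output factor DBP fell by 2.10 ± 0.20 (edgeR adjusted p = 1.07e-05) and the repressor CIART by 0.63 ± 0.18 (edgeR adjusted p = 0.0127, or 0.0581 without resistant replicate 1). The kinase CSNK1E rose by 0.61 ± 0.12 (edgeR adjusted p = 0.00164). PER2 rose by 0.87 ± 0.25 (edgeR adjusted p = 0.0133, or 0.0548 without wild-type replicate 1 and 0.0733 without resistant replicate 1).

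Several of the receptor genes are neighbours. On chromosome 3, THRB lies 0.14 Mb from NR1D2 and 0.68 Mb from RARB, and it lies between these called genes, both higher, with the uncalled log2 change of -0.25 given above. On chromosome 17, THRA and NR1D1 overlap by 1081 bases at their ends on opposite strands, and RARA lies 0.21 Mb beyond. THRA begins 0.33 Mb from ERBB2, which had a log2 change of -1.16. THRA, NR1D1 and RARA were not called, apart from the alternative settings given above for NR1D1 and RARA. Gene copy number was not measured here, and whether neighbouring genes changed together was not tested. NR1D1 shares 9.5% and THRA 3.8% of exon bases with opposite-strand genes, so their values are less certain. The same limit holds for NR4A1 (10.3%), ESRRA (9.4%), RXRB (6.2%), PGR (5.3%), RORA (4.8%) and NR1H3 (4.2%).

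COUP-TFs are orphan receptors of development and mesenchyme. NR2F2 (COUP-TFII, chr15:96325938-96340263) fell 2.60-fold, from 114 and 114 to 46.3 and 41.4 CPM (log2 change -1.38 ± 0.12, edgeR adjusted p = 3.99e-06). Its paralogue NR2F1 (COUP-TFI) went the other way, from 4.04 and 4.85 to 7.16 and 7.69 CPM (log2 change 0.74 ± 0.19, edgeR adjusted p = 0.0091, or 0.061 without wild-type replicate 1). NR2F2 thus stood at 18.9 and 15.7 times NR2F1 per kb in wild-type and at 4.33 and 3.60 times in resistant libraries. NR2F6 fell from 63.9 and 75.9 to 34.5 and 46.7 CPM (log2 change -0.78 ± 0.16, edgeR adjusted p = 0.00199). Another gene covers 71.1% of the span of NR2F6 and shares 8.3% of its exon bases. The testicular receptor NR2C2 rose from 6.88 and 7.71 to 13.8 and 11.6 CPM (log2 change 0.80 ± 0.17, edgeR adjusted p = 0.00307), and 11.4% of its exon bases are shared with opposite-strand genes. NR2C1, which pairs with NR2C2, was level at 132 and 134 against 137 and 146 CPM (log2 change 0.09 ± 0.11, edgeR adjusted p = 0.539).

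**Figure D3:**
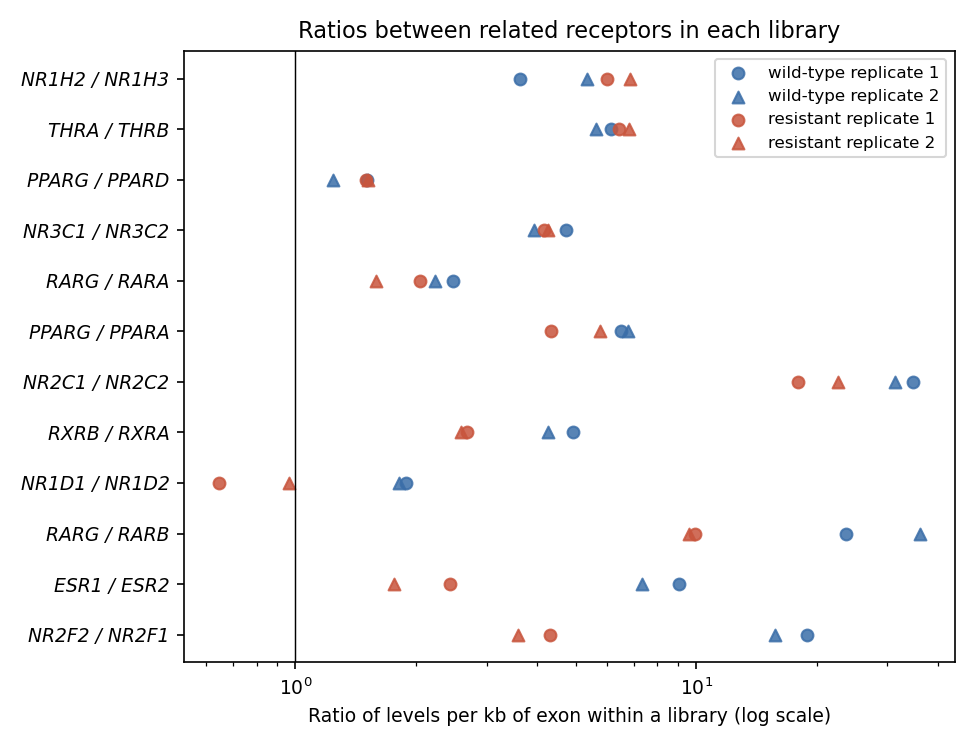
Ratio of the levels per kb of exon of 12 pairs of related receptors in each library, on a log axis, with a line at equal levels. Blue is wild-type and red resistant, and the pairs NR2F2 to NR2F1, ESR1 to ESR2 and RARG to RARB are farthest apart, with NR1D1 to NR1D2 crossing the line.

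Ratios within a library do not depend on its scaling. They are given as a description and were not tested. With 2 libraries a side a two-sided exact permutation test of a ratio cannot give a p below 0.333. By contrast with the pairs above, the NR3C1 to NR3C2 ratio per kb was 4.72 and 3.93 in wild-type and 4.16 and 4.27 in resistant libraries, within the spread of the wild-type pair. PPARG stood at 1.505 and 1.24 times PPARD in wild-type and at 1.503 and 1.516 times in resistant libraries, and the groups overlapped.

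The NR4A receptors are immediate early genes that act without a known natural ligand. None of the 3 was called. NR4A2 had 6.76 and 8.69 CPM against 9.18 and 8.13 CPM, NR4A1 2.04 and 2.45 against 2.94 and 2.73 CPM, and NR4A3 between 0.954 and 1.28 CPM in all libraries. Their log2 changes ran from 0.16 ± 0.19 for NR4A2 to 0.33 ± 0.25 for NR4A1, with edgeR adjusted p-values of at least 0.316. HNF4G, a receptor of gut and kidney epithelia, rose from 12.7 and 12.9 to 23.8 and 17.97 CPM (log2 change 0.71 ± 0.17, edgeR adjusted p = 0.00535), whereas HNF4A had 15 and 31 reads against 32 and 23 (log2 change -0.35 ± 0.61, edgeR adjusted p = 0.668). NR6A1, the germ cell nuclear factor, was level at 50.7 and 49.9 against 52.8 and 52.1 CPM (log2 change 0.06 ± 0.12, edgeR adjusted p = 0.71). NR5A2 had 5 and 13 reads against 12 and 38, and RORB 14 and 5 against 17 and 27, and neither was called.

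Of 13 tested genes known to respond to oestrogen or progesterone, a class of steroid receptor targets, 8 fell and 1 rose, where 23.2% of all genes were called lower and 22.1% higher. Their median log2 change was -0.75, against 0.003 over all tested genes. GREB1, an oestrogen-induced cofactor of ESR1, fell from 9.11 and 8.38 CPM to 0.18 and 0.0842 CPM, where it had 12 and 7 reads (log2 change -6.07 ± 0.33, edgeR adjusted p = 1.12e-07). The stanniocalcin gene STC2 had 953 and 1725 reads in wild-type and 2 and 1 in resistant libraries, a ratio of 1420 with a 95% counting interval of 487 to 6910. Its fitted log2 change of -10.31 became -10.945 without resistant replicate 1 and -9.53 in limma on the authors' normalized values. The receptor kinase RET fell by 1.65 ± 0.21 on the log2 scale (edgeR adjusted p = 7.63e-05). The 1 rise was in the oestrogen-responsive factor MYB, named here after its values were seen, which had 4 and 7 reads in wild-type and 36 and 63 in resistant libraries (log2 change 2.46 ± 0.65, edgeR adjusted p = 0.00974).

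Among 11 tested glucocorticoid targets 7 fell and 2 rose, where 23.2% of all genes were called lower and 22.1% higher. Their median log2 change was -0.58, against 0.003 over all tested genes. NR3C1 itself was higher, and its part in these values was not tested. CEBPD fell from 42.9 and 55.2 to 7.88 and 12.3 CPM (log2 change -2.28 ± 0.21, edgeR adjusted p = 6.83e-06). KLF9, named above, and the metallothionein MT2A, which fell by 1.21 ± 0.18 (edgeR adjusted p = 0.000242), also belong to this list. The kinase SGK1 rose from 6.34 and 6.45 to 16.9 and 19.0 CPM (log2 change 1.49 ± 0.16, edgeR adjusted p = 2.61e-05). FKBP5, a target that is also a chaperone of the receptor, rose by 0.70 ± 0.16 (edgeR adjusted p = 0.005).

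Coactivators changed in both directions, with 4 of 19 higher and 7 lower, or 57.9%, where 45.3% of all genes were called. Besides PPARGC1A, NCOA1 (SRC-1), the first of the p160 coactivators, fell from 59.5 and 52.6 to 18.2 and 15.5 CPM (log2 change -1.73 ± 0.14, edgeR adjusted p = 2.81e-06). PELP1, which binds oestrogen receptors, fell by 0.70 ± 0.17. MED1, the Mediator subunit that receptors contact, rose by 0.77 ± 0.18, the helicase DDX5 by 0.66 ± 0.11 and NCOA5 by 0.58 ± 0.11, and these 4 had edgeR adjusted p-values from 0.000443 for DDX5 to 0.00517 for PELP1. Of 12 tested corepressors 1 rose and 2 fell, or 25.0%, below the share over all genes. Lower were HR, a corepressor of thyroid hormone and vitamin D receptors, at 58.1 and 68.9 against 19.9 and 22.1 CPM, and TBL1X, a subunit of the NCoR complex, by 0.77 ± 0.13 on the log2 scale (edgeR adjusted p = 0.000654). SIN3A rose by 0.41 ± 0.11 (edgeR adjusted p = 0.0125, or 0.0675 without wild-type replicate 1 and 0.0957 without wild-type replicate 2).

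**Figure D4:**
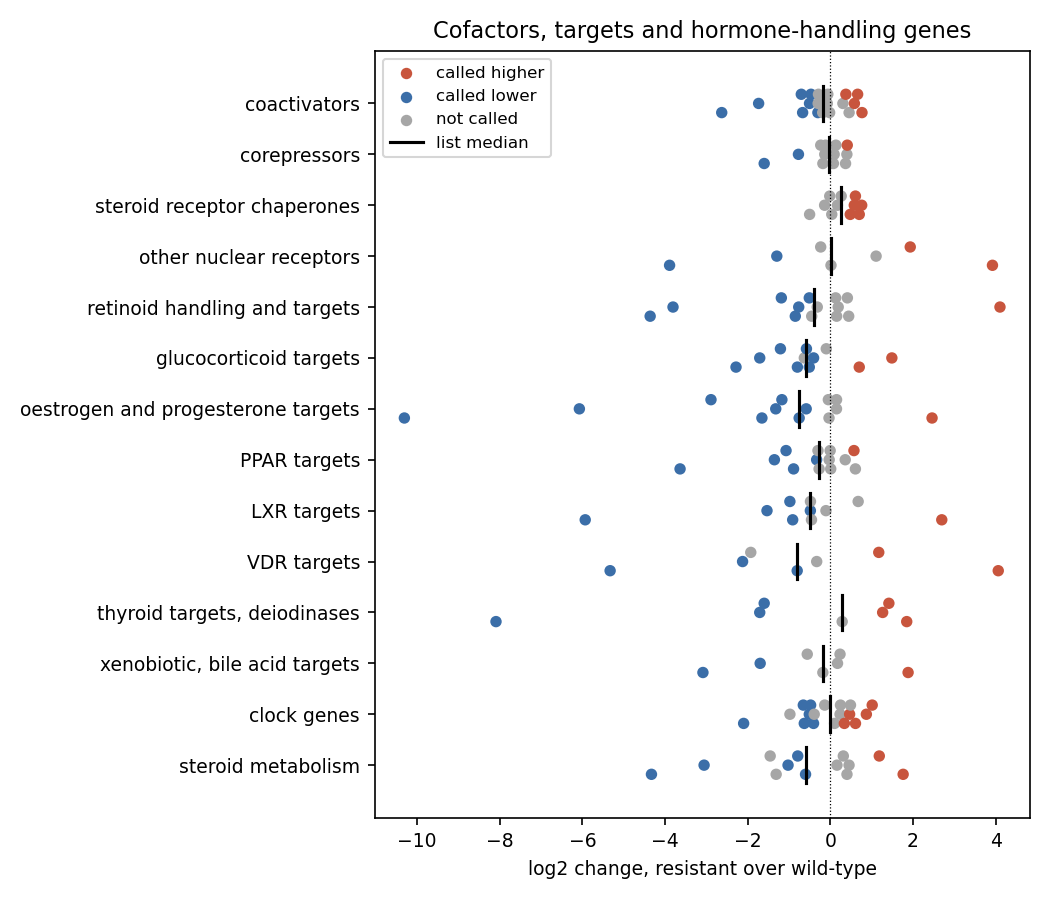
Fitted log2 change of each tested gene in 14 lists of cofactors, targets and hormone-handling genes, with a black line at each list's median. Red genes were called higher and blue genes lower, and the medians of the oestrogen and progesterone list (-0.75) and of the VDR list (-0.80) lie farthest to the left.

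Over all 14 lists, with genes in several lists taken once, 158 of 202 genes were tested, and 30 rose and 58 fell. That is 55.7% of those tested, where 45.3% of all genes were called (22.1% higher and 23.2% lower). The median log2 change was -0.18, against 0.003 over all tested genes.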

How the data were processed

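Reads per gene were deposited as raw whole-number counts. The authors also deposited a normalized signal, in which each library's counts are divided by 1 factor. The submitters' processing notes name STAR 2.5.1a, HTSeq, DESeq and the build GRCh38.p7. No source used here gives the annotation or how reads on overlapping genes were counted. Libraries were made with a kit that keeps strand, per the labels' protocols.

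The family of receptors to describe, the 14 gene lists and the tests were chosen with earlier results of these data known, although no measured value enters the rule that picks the receptors. Counts were fitted over all genes with edgeR 4.0.16 in R 4.3.3 (TMM, filterByExpr with a minimum count of 10 and total of 15, group as the only term, quasi-likelihood F test, Benjamini-Hochberg adjustment, calls under 0.05). SE is the size of the log2 change over the square root of F. Alternatives used DESeq2 1.42.0, limma 3.58.1, other filters and normalization, a replicate block and each library left out. From each list the up to 3 largest called rises and falls with a mean of at least 1 CPM are named, except 2 genes that are not reported here, and other genes by counts. On data simulated for resistant against wild-type (18444 genes fitted), edgeR recovered 89% of 2-fold and all of the 4-fold changes, with 13 false calls. The simulation changed only genes above a minimum mean count and gave every gene the same spread between replicates. Recovery for receptors with few reads, or with a larger spread, was therefore not measured. Replicates differed beyond sampling noise (chi-square over degrees of freedom of 17.0 and 46.5). A group at 1 to 3 reads has a ratio with an exact binomial (Clopper-Pearson) interval, which covers counting error only. Positions, exon lengths and overlaps come from GENCODE release 29 and upstream sequences from RefSeq on GRCh38.p14.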

Additional observations from a re-analysis of the deposited data

How the results depend on the processing

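Counts of calls stayed within 1.5 times of those reported under each of the 11 alternatives: 5 to 9 receptors higher, 6 to 11 lower, 20 to 38 pathway genes higher and 46 to 64 lower. Over all genes the counts ran from 2974 to 4767 higher and from 3010 to 4879 lower. With each library left out in turn, 5 to 8 receptors were higher and 6 to 11 lower. Of 387 refitted receptor changes, 347 kept direction and call, 14 lost a call, 15 gained one and 11 changed sign. The sign changes, none in a called receptor, came from leaving out 1 library, and the cause was not tested. Over the 4 such fits the log2 change ran from -0.127 to 0.0534 for ESR2, from -0.186 to 0.105 for PPARA, from -0.159 to 0.0074 for THRA, from -0.199 to 1.596 for RORA, from -0.171 to 1.57 for RORB, from -0.0011 to 0.352 for NR4A3, from -0.0458 to 1.446 for NR5A2 and from -0.783 to 0.0966 for HNF4A. Leaving out wild-type replicate 2 turned ESR2, RORA, RORB and HNF4A, resistant replicate 1 turned ESR2 and NR4A3, and resistant replicate 2 turned PPARA, THRA, RORA, NR5A2 and HNF4A. The replicate numbers are shared between the groups but nothing in the labels pairs the libraries. Deviations of same-numbered libraries from their group means correlated at 0.247 over 18602 genes, and with the replicate block 9 receptors were higher and 10 lower. Depth limits the 10 receptors under 2 CPM, of which 3 had too few reads for a fit.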

Other observations

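Of 23 genes of steroid metabolism 13 were tested, and 5 fell and 2 rose, where 23.2% of all genes were called lower and 22.1% higher. They had a median log2 change of -0.60, and all values here are from edgeR's quasi-likelihood fit. The steroid sulfatase STS, which releases oestrone and other steroids from their sulfates, fell from 235 and 218 CPM in the wild-type libraries to 32.6 and 21.97 CPM in the resistant libraries (log2 change -3.05 ± 0.17, edgeR adjusted p = 1.62e-07). HSD11B2, which inactivates cortisol, fell from 5.24 and 6.43 to 0.33 and 0.253 CPM (log2 change -4.33 ± 0.30, edgeR adjusted p = 8.72e-07), and HSD17B8 fell by 1.02 ± 0.17 (edgeR adjusted p = 0.000502). AKR1C2 rose from 4.27 and 3.76 to 14.0 and 13.3 CPM (log2 change 1.76 ± 0.18, edgeR adjusted p = 1.4e-05), where reads from near-identical AKR1C genes may be divided among them, and HSD17B11 rose by 1.19 ± 0.19 (edgeR adjusted p = 0.000505).

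Among targets of the xenobiotic and bile acid receptors, 1 of 7 tested rose and 2 fell, or 42.9%, where 45.3% of all genes were called. The bile acid transporter subunit SLC51B fell by 1.70 ± 0.29 (edgeR adjusted p = 0.00069). Of 11 tested chaperones of the steroid receptors 5 rose and 0 fell, 45.5% of those tested, where 45.3% of all genes were called. HSP90AA1 was among the 5, at 2414 and 2190 CPM against 3853 and 3166 CPM (log2 change 0.61 ± 0.13, edgeR adjusted p = 0.00232). FKBP4 rose by 0.76 ± 0.25 (edgeR adjusted p = 0.0282, or 0.193 without resistant replicate 1 and 0.0657 without wild-type replicate 1). Of 7 tested receptors outside the 39, 2 rose and 2 fell, or 57.1%, where 45.3% of all genes were called. NR2E1, a receptor of the nervous system, fell by 1.29 ± 0.36 (edgeR adjusted p = 0.0127, or 0.0575 without resistant replicate 1), from levels under 2 CPM.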
